A study of Mus musculus with 2 samples.

Results

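Interferon-stimulated effector genes carry out the antiviral work of an interferon response. The list described here held 39 such genes, chosen by symbol, from which signaling, ISGylation, sensor and Schlafen genes were left out. Of the 39, 38 had a row among the 31053 genes of the feature table, and Mx2 was not analysed here. In all, 28 had at least 100 unique molecular identifiers (UMIs, each a counted mRNA molecule) over both libraries, the minimum set for reading a ratio, as did 10527 of all genes. These 28 are the members that passed a filter on level, and the other 10 are given by their counts.

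The cells were mouse acute myeloid leukemia cells driven by AE9a, a truncated AML1-ETO fusion protein delivered by a retrovirus that also carries GFP. They were sorted as GFP+ Lin- c-Kit+ splenocytes from recipient mice that were given oil or tamoxifen when sick, on day 3 after the first injection, and were profiled by droplet single-cell RNA-seq from the 3′ end, with 1 library per group made from 3 pooled mice. Both groups carried AE9a, GFP, a floxed Usp18 and UBCER-Cre, a Cre recombinase that tamoxifen switches on in all tissues of a mouse that carries it. The recipients were wild-type mice, and no group without Cre was given tamoxifen in these samples. The labels give the oil group as Usp18f/f and the tamoxifen group as Usp18delta/delta in their genotype fields, and their treatment fields and the series title also name both alleles. Their protocol instead describes Usp18+/f cells and loss of a single allele. The study lists a single-cell set with both alleles depleted beside a set with a single allele, and these descriptions were not reconciled here. With 1 library per group no test could be made. Intervals are 95% intervals for counting error only, and the effects of tamoxifen, of Usp18 loss, of the mice and of the library cannot be told apart.

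After filtering, the oil library held 6838 cells with 66045700 UMIs and the tamoxifen library 6472 cells with 60661486, at medians of 8622.5 and 8209.5 UMIs per cell, and 12 cell barcodes were shared. Usp18, the targeted gene, went against its label: it had 371 UMIs, or 5.62 CPM (UMIs scaled to a library total of 1000000), in the library labelled oil and 933 UMIs, or 15.4 CPM, in the library labelled tamoxifen. Because a transcript that lacks an internal exon is still counted from its 3′ end, this level does not check the deletion, and the groups are called by their labels throughout. The gate's markers Kit, Gata2, Myb and Runx1 all had UMIs and summed to 1448 and 1479 CPM. Markers of T cells (0 and 8 UMIs), B cells (14 and 13) and neutrophils (1 and 1) were at or near 0. The macrophage and monocyte list summed to 7.45 CPM in both, mostly Cd68 (324 and 292 UMIs), C1qa (66 and 66) and C1qb (75 and 74), with Csf1r at 13 and 13 UMIs and Adgre1 at 2 and 0. The NK cell list had 29 and 38 UMIs, all of Nkg7, the endothelial list 18 and 31 UMIs, and the plasmacytoid dendritic cell list 76.4 and 90.2 CPM, nearly all of it Bst2, itself a member, with Siglech at 0. Mast cell markers summed to 1533 and 1214 CPM and erythroid markers to 6139 and 7753 CPM, and their part in the results below was not tested.

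In a type I interferon response, the cytokine binds the receptor formed by IFNAR1 and IFNAR2, and the kinases JAK1 and TYK2 pass the signal to a transcription factor complex, with IRF9 among its subunits, that binds the interferon-stimulated response element in the promoters of target genes. USP18 restrains this pathway at IFNAR2 and also removes the ubiquitin-like protein ISG15 from its targets. The effectors that follow act at many steps: IFIT proteins bind viral RNA, OAS enzymes make the second messenger that activates RNase L, Mx and guanylate-binding proteins are GTPases that attack viruses or pathogen-containing vacuoles, and tetherin (Bst2) holds budding virions at the cell surface.

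The response element core, GAAANNGAAA on either strand, was searched for in RefSeq promoter windows (GRCm38.p6, 250 bases before to 50 after a start). Of the 29 members with a window, 15 held it (51.7%), beside 3.99% of the 27025 genes with a window and 3.68% of those genes that passed the UMI minimum. With a further C required at its 3′ end, 11 members (37.9%) and 0.944% of genes held it. The gamma-activated site, TTCNNNGAA, was in 7 members (24.1%) and 9.55% of genes. A match is a description of letters, not a bound site. The stretches below are shown because they come from neighbouring genes of the same family whose levels differ, and from a gene with a match but almost no UMIs. Matches are in capitals, on the strand of the gene, and a match on the other strand reads TTTC, 2 free bases and TTTC. All bases lie before the RefSeq start site.
Ifit1 (chr19:34640760-34640839, plus strand): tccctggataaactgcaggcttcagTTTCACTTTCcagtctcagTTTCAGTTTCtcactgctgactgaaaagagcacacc
Ifit3 (chr19:34583348-34583441, plus strand): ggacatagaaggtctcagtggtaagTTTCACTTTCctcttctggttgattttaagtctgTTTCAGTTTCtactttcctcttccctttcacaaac
Ifit3b (chr19:34607744-34607837, plus strand): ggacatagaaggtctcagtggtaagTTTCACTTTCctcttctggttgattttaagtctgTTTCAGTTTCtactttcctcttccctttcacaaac
Oas3 (chr5:120777680-120777759, minus strand): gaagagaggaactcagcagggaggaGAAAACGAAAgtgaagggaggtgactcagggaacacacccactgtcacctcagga
Oas1a (chr5:120907526-120907605, minus strand): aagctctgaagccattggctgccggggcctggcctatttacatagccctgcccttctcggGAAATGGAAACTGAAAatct
Rsad2 (chr12:26456518-26456597, minus strand): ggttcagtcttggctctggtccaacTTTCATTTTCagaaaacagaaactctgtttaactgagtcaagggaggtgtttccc

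In Ifit1, Ifit3, Ifit3b and Oas1a the window held 2 matches each, which overlap in Oas1a. Oas3 and Rsad2 held 1 each. Beside these matches, Ifit1 had 605 UMIs in the tamoxifen library while Ifit3 had 14, Ifit3b had 4 and Rsad2 had 3, and no match was found in the windows of Oasl2 and Xaf1, which were among the members with the largest ratios.

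Across the 28 members that passed the filter, 24 had a higher CPM in the tamoxifen library and 4 a lower one, where 38.3% of all genes were higher. The median log2 ratio (tamoxifen over oil) was 0.38 beside -0.063 over all 10527 genes. The interval of the ratio lay above 0 for 23 members (19.3% of all genes), below 0 for 0 members (39.8% of all genes) and included 0 for 5. Scaled by TMM or median ratios, which shifted every ratio up by 0.065 and 0.063, or by totals without mitochondrial and ribosomal protein genes, all 28 were higher. At least 1.5-fold higher were 10 of the 28 members (35.7%), against a background of 2.09% of all genes, and at least 2-fold higher were 5 (17.9%), against 0.475%. None of the 28 was 1.5-fold or 2-fold lower, where the background was 1.27% and 0.142%. The 5 were Ifit1, Oasl2, Rtp4, Xaf1 and Oas2, a set formed after these values were seen. Among the barcodes that the cell filter left out, 25 of the 28 members were higher (33.3% of all genes), 9 of them with an interval above 0 (5.23% of all genes).

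**Figure D1:**
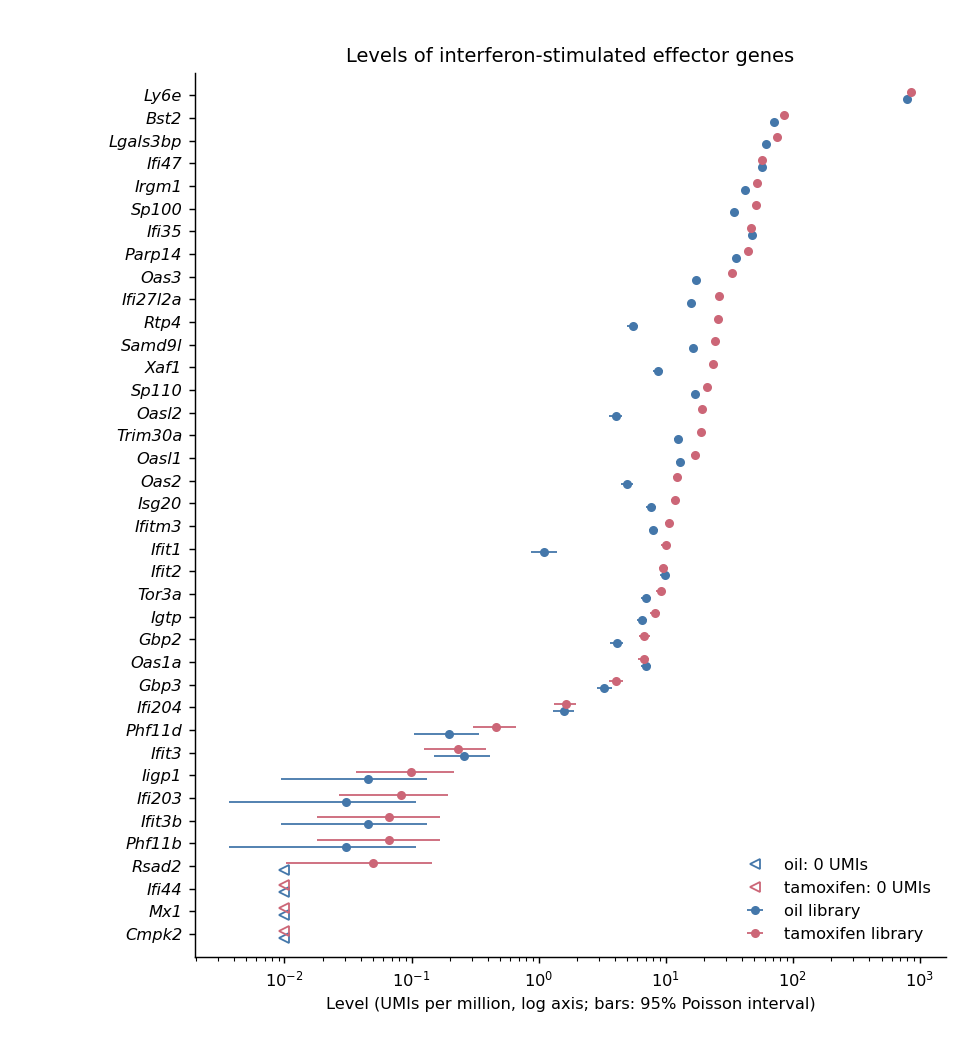
Level of each of the 38 members with a row (CPM, log axis) in the oil and tamoxifen libraries, with 95% Poisson intervals. Open triangles at the left edge mark 0 UMIs. The widest gaps between the libraries are at Ifit1, Oasl2 and Rtp4, and 10 genes at the bottom lie under 1 CPM in both libraries.

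The IFIT family, whose proteins bind viral RNA ends, held both the largest ratio and members that hardly differed. Ifit1 (chr19:34640871-34650009, GRCm38) was counted with 73 UMIs in the oil library, 1.11 CPM (0.866 to 1.39), and 605 in the tamoxifen library, 9.97 CPM (9.19 to 10.8), a 9.02-fold difference with a log2 ratio of 3.17 (2.82 to 3.54). A stricter cell filter, with 1000 or more genes and mitochondrial UMIs of 5% or less, gave a log2 ratio of 4.02, without an interval. That filter kept only 673 oil and 771 tamoxifen cells, in which 20 of the 28 members still had at least 100 UMIs. Ifit2, the neighbour of Ifit1 (34550694 to 34576419), had 650 and 582 UMIs, 9.84 and 9.59 CPM, with a log2 ratio of -0.04 (-0.20 to 0.13). So in the tamoxifen library Ifit1 reached the level of Ifit2, from which it was far apart in the oil library. Ifit3 had 17 and 14 UMIs and Ifit3b 3 and 4, and 6.57% of the 90-base windows at the 3′ end of Ifit3 also occur in Ifit3b.

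In the family of the 2′-5′ oligoadenylate synthetases (OAS) and the related Oasl genes, 4 of 5 members were higher. Oasl2 (chromosome 5, 114896936 to 114912234, plus strand) had 267 and 1177 UMIs, 4.04 CPM (3.57 to 4.56) and 19.4 CPM (18.3 to 20.5), a log2 ratio of 2.26 (2.07 to 2.46). Oas2 (120730333 to 120749853, minus strand) had 326 and 748 UMIs, 4.94 CPM (4.41 to 5.50) and 12.3 CPM (11.5 to 13.2), a log2 ratio of 1.32 (1.13 to 1.51). Both were more than 2-fold higher, and their intervals in the libraries did not overlap. Oas2 was below 2-fold among cells in S phase (log2 ratio 0.95) and in G2M (0.83). Oas3 went from 17.3 to 33.3 CPM with a log2 ratio of 0.94 (0.84 to 1.05), and Oasl1 from 13.0 to 16.9 CPM with 0.37 (0.24 to 0.51). The ratio of Oas3 was smaller within each phase, at 0.74 in G1, 0.50 in S and 0.58 in G2M. Oas1a, at 7.04 and 6.74 CPM, had a log2 ratio of -0.06 (-0.26 to 0.13). Of the 90-base windows at its 3′ end, 42.3% also occur in Oas1g, so its counts are uncertain.

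Among the nucleotide and membrane effectors, all 4 that passed the filter were higher. Rtp4, a transmembrane protein that chaperones receptors, had 363 and 1569 UMIs, 5.50 CPM (4.95 to 6.09) and 25.9 CPM (24.6 to 27.2), a log2 ratio of 2.23 (2.07 to 2.40). The exonuclease gene Isg20 had 7.65 and 11.9 CPM with a ratio of 0.64 (0.47 to 0.80). Ifitm3, which blocks fusion of virus in endosomes, had 7.99 and 10.6 CPM with a ratio of 0.41 (0.24 to 0.58). Bst2 had the highest level of the group, 71.6 and 84.8 CPM, and the lowest ratio, 0.24 (0.19 to 0.30). Rsad2, which encodes viperin, had 0 and 3 UMIs and Cmpk2, its neighbour on chromosome 12, had 0 in both libraries, where 3 UMIs correspond to 0.0454 and 0.0495 CPM. Mx1 was likewise at 0 and 0 UMIs.

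**Figure D2:**
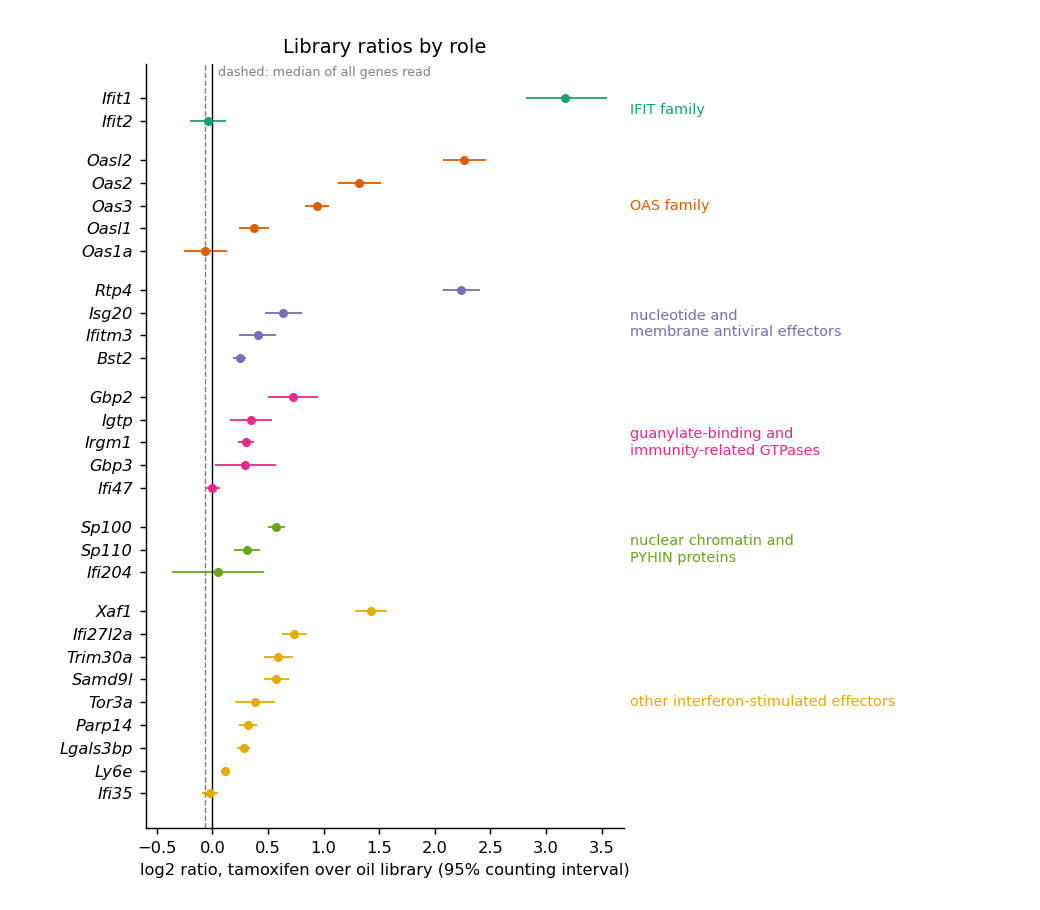
Log2 ratio of tamoxifen over oil for the 28 members with at least 100 UMIs, grouped and colored by role, with 95% counting intervals. The solid line is at 0 and the dashed line at the median of all genes read, -0.063. Ifit1 lies farthest right at 3.17, while Ifit2, Oas1a, Ifi47 and Ifi35 lie at or just below 0.

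Among the guanylate-binding and immunity-related GTPases, which act on membranes around pathogens, the differences were smaller. Gbp2 had 4.10 and 6.78 CPM with a log2 ratio of 0.72 (0.50 to 0.95), the only one past 1.5-fold. It was below 1.5-fold in G1 (0.37) and G2M (0.0041). Under the stricter cell filter both Gbp2 (1.48) and Gbp3 (1.07) were past 1.5-fold, on 673 oil and 771 tamoxifen cells and without intervals. Igtp (0.35), Irgm1 (0.30) and Gbp3 (0.30) followed, each with an interval above 0. Ifi47, the most abundant of the group, had 57.3 and 57.2 CPM and a ratio of -0.0023 (-0.069 to 0.065). Within phases it was lower in G1 (-0.14, -0.24 to -0.037) and G2M (-0.16, -0.28 to -0.038). In S it had 0.097 (-0.042 to 0.23). Iigp1 had 3 and 6 UMIs.

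Among nuclear proteins, Sp100, a component of PML bodies, had 34.6 and 51.6 CPM with a log2 ratio of 0.58 (0.50 to 0.65), and Sp110 had 17.0 and 21.2 CPM with 0.31 (0.20 to 0.43). The DNA-sensing PYHIN gene Ifi204 had 104 and 99 UMIs with a ratio of 0.05 (-0.36 to 0.46). Ifi203 had 2 and 5 UMIs, Phf11b 2 and 4, and Phf11d 13 and 28. Shared 3′ windows made up 24.3% of those of Sp110, 22.6% of Phf11b and 15.5% of Phf11d.

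The remaining effectors ranged from -0.02 to 1.43. Xaf1, which counters the apoptosis inhibitor XIAP, had 575 and 1420 UMIs, 8.71 CPM (8.01 to 9.45) and 23.4 CPM (22.2 to 24.7), a log2 ratio of 1.43 (1.29 to 1.57). Ifi27l2a, which encodes a small mitochondrial protein, had 15.8 and 26.3 CPM with 0.74 (0.62 to 0.85), and Trim30a, an E3 ligase family member, had 12.6 and 18.9 CPM with 0.59 (0.46 to 0.72), though 17.8% of its 3′ windows are shared with Trim30d. Samd9l (0.58), Tor3a (0.38), the ADP-ribosyltransferase gene Parp14 (0.32) and Lgals3bp (0.28) were higher with intervals above 0. Ly6e, a GPI-anchored protein, was by far the most abundant member at 790 and 855 CPM, with a ratio of 0.11 (0.096 to 0.13). Ifi35 had 47.8 and 47.2 CPM with a ratio of -0.02 (-0.094 to 0.053). Ifi44 was at 0 UMIs in both libraries. Because 3′ reads count each molecule once, levels here were not divided by gene length.

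Other genes of the pathway were read beside the effectors. Of 17 genes of the type I interferon pathway, 16 passed the UMI minimum, 14 were higher with an interval above 0 (19.3% of all genes) and 7 were at least 1.5-fold higher (2.09% of all genes). Tyk2 (-0.032) and Irf3 (-0.074) were lower, with intervals that included 0. Irf7, an interferon-amplifying transcription factor, had a log2 ratio of 1.58 (1.45 to 1.72), Isg15 of 1.25 (1.19 to 1.31), Stat2 of 0.61 and Irf9 of 0.35. The receptor genes differed little, Ifnar1 with 0.14 (0.036 to 0.24) and Ifnar2 with 0.091 (0.0039 to 0.18). Of 8 sensor genes, 4 passed the minimum and all 4 were higher (38.3% of all genes), from Eif2ak2 at 0.17 to Dhx58 at 1.03. The 10 interferon genes examined, Ifnb1 and 4 Ifna genes among them, had 0 UMIs in the oil library and 2 in the tamoxifen library.

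Shares of cells with a UMI depend on depth, so every cell was thinned to 3000 UMIs. That removed 508 and 345 cells of lower depth. Of 28 members, 25 then had a higher share in the tamoxifen library and 3 a lower one, where 36.8% of all genes had a higher share. The intervals lay apart for 18 members, all higher, beside 6.24% of all genes apart and higher and 20.7% apart and lower. Ifit1 was seen in 0.253% of cells (0.145 to 0.410) in the oil library and 2.53% (2.15 to 2.95) in the tamoxifen library, against 0.453% and 4.57% of cells without thinning. Oasl2 went from 1.42% to 6.27% of thinned cells, Rtp4 from 1.58% to 7.67%, Xaf1 from 3.27% to 7.26% and Oas2 from 1.42% to 3.97%. Ly6e was seen in 82.4% and 85.8% and Ifi47 in 16.1% and 15.8%. No cell type that lacks these genes was identified among the sorted cells, so the share due to free RNA was not measured.

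The number of members seen in a cell had a median of 2 in both thinned libraries and a mean of 2.37 and 2.88. The libraries parted in the upper tail. Cells with at least 6 members made up 2.56% (2.18 to 2.98) of the oil library and 8.57% (7.88 to 9.30) of the tamoxifen library, those with at least 8 made up 0.490% and 3.38%, and those with at least 10 made up 0.174% and 1.42%. At least 1 of the 5 members past 2-fold was seen in 7.17% and 20.1% of cells, at least 2 in 0.648% and 5.37%, and at least 3 in 0.111% and 1.76%. The last of these follow from a set chosen on the library ratio and are a description.

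**Figure D3:**
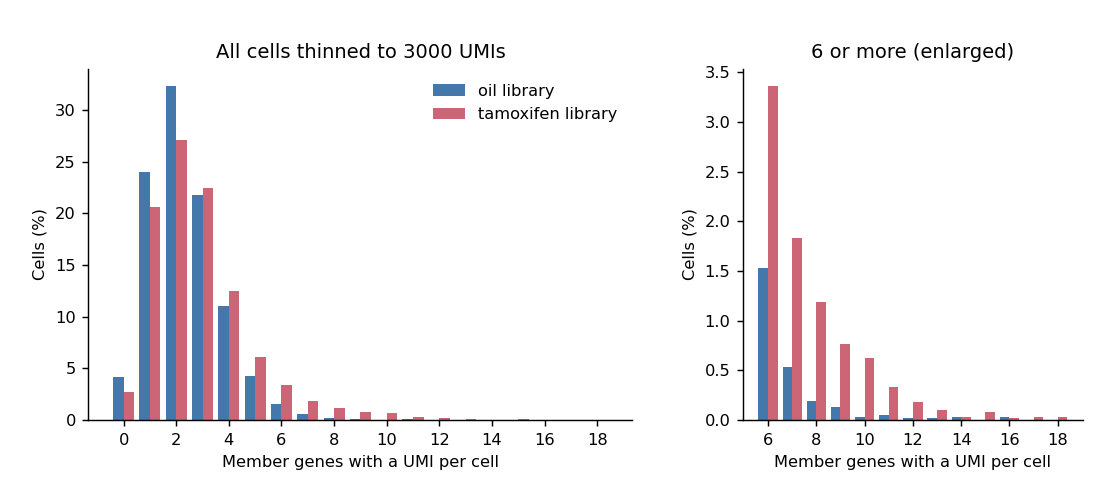
Percent of cells (bars, from 0) by the number of the 38 members with a UMI, after thinning each cell to 3000 UMIs, for the oil and tamoxifen libraries. The right panel enlarges 6 or more members, which 2.56% of oil cells and 8.57% of tamoxifen cells reached, and the medians are 2 in both.

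Ifit1 was concentrated in few cells. Its 73 UMIs in the oil library lay in 31 cells, 2.35 per cell with a UMI, and its 605 UMIs in the tamoxifen library lay in 296 cells, 2.04 per cell. The 1% of tamoxifen cells with most Ifit1 held 53.4% of its UMIs. Ifit2 had 582 UMIs in the tamoxifen library, a like number, spread over 519 cells at 1.12 per cell, and the top 1% of cells held 22.0%. Ifitm3 was nearly as concentrated as Ifit1. Its 643 UMIs in the tamoxifen library lay in 348 cells at 1.85 per cell, and the top 1% of cells held 48.7%. The libraries differed more in how many cells had an Ifit1 UMI than in the UMIs per such cell, a mean that cannot fall below 1. Rtp4 and Oasl2 did so too. Rtp4 lay in 296 oil and 1021 tamoxifen cells at 1.23 and 1.54 per cell. Oasl2 lay in 220 and 811 cells at 1.21 and 1.45.

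Ifit1, fixed as the anchor of a type I response, also marked cells in which other members were higher. Compared with cells of the same library without an Ifit1 UMI, the summed level was higher for 26 of 27 other members in the oil library, with an interval above 0 for 24 (3.52% of all genes) and a median log2 difference of 2.47. Of all genes, 41.4% were higher there and 3.57% had an interval below 0. In the tamoxifen library it was higher for all 27 (44.8% of all genes), with an interval above 0 for 25 (9.92% of all genes, with 14.0% below) and a median of 1.86. Rtp4 had 70.9 against 5.19 CPM in oil cells and 133 against 20.9 CPM in tamoxifen cells, and Oasl2 had 70.9 against 3.73 CPM and 115 against 14.9 CPM. Ly6e hardly differed in tamoxifen cells, at 883 against 854 CPM. Ifi204, at 1.86 against 1.62 CPM, had only 5 UMIs in tamoxifen cells with an Ifit1 UMI. Its log2 difference, 0.20 (-1.46 to 1.47), is too wide to read. After thinning, cells with an Ifit1 UMI held on average 6.88 other members in the oil library, against 2.36 in the rest, and 6.83 against 2.75 in the tamoxifen library. In the oil library only 16 thinned cells had an Ifit1 UMI.

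**Figure D4:**
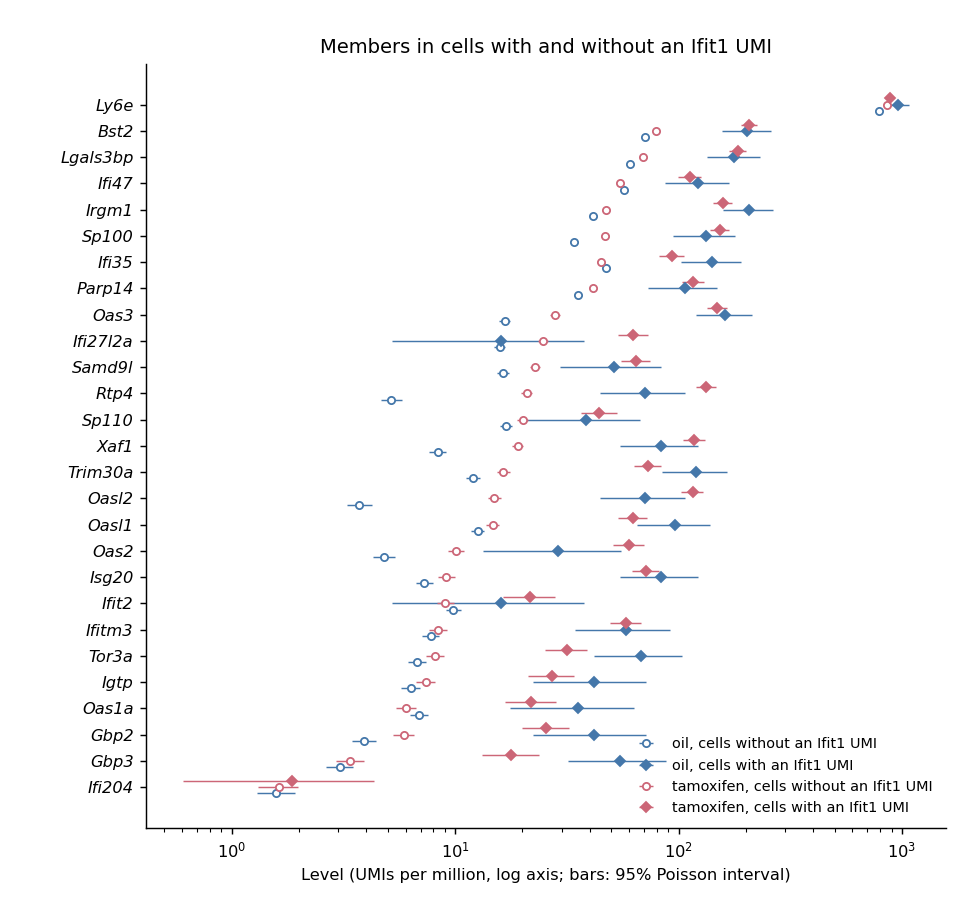
Level (CPM, log axis) of 27 members in cells with (filled diamonds) and without (open circles) an Ifit1 UMI, in the oil and tamoxifen libraries, with 95% Poisson intervals. Members at 0 UMIs in a group have no point, as Ifi204 in the 31 oil cells. Filled diamonds of both libraries lie mostly to the right of the open circles. The oil and tamoxifen diamonds lie widest apart at Ifi27l2a and Gbp3, in opposite directions.

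Within cells with an Ifit1 UMI, the median ratio between the libraries was -0.059, beside -0.071 over all genes. Of 27 members, 13 were higher (50.5% of all genes), 4 had intervals above 0 (3.14%) and 5 below 0 (5.91%). Those above were Ifi27l2a (1.96), Oas2 (1.04), Rtp4 (0.91) and Oasl2 (0.70). Those below were Gbp3 (-1.62), Tor3a (-1.10), Trim30a (-0.71), Oasl1 (-0.63) and Ifi35 (-0.60). Ifi204, with 0 and 5 UMIs, counts as higher but has no ratio and is not in the median. The all-gene median likewise covers only the 9360 genes with UMIs in both libraries. Within cells without it, the median was 0.22, beside -0.064 over all genes, with 23 of 27 higher, 20 intervals above 0 and 0 below, where 38.1%, 18.6% and 39.6% of all genes were higher, above and below. The 31 oil cells give wide intervals, and the difference between these medians was not tested. Cells with and without an Ifit1 UMI differed in other ways too. In the tamoxifen library the former had 159 against 235 CPM of Kit, 5733 against 2295 of the erythroid gene Hbb-bs and 123 against 330 of the mast cell gene Cpa3, while Siglech and S100a8 were at 0 in both. The part of these differences in the result was not tested.

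Across the cell cycle, the median ratio of the members was 0.35 in G1, 0.21 in S and 0.33 in G2M. Members past 1.5-fold numbered 7 of the 27 with at least 100 UMIs in G1 (1.43% of all genes), 4 of 24 in S (0.845%) and 6 of 24 in G2M (1.23%), and those past 2-fold 5 (0.301%), 3 (0.0866%) and 3 (0.193%). Ifit1 and Gbp2 were under that UMI minimum in S and G2M, so the counts there leave them out. Ifit1 had ratios of 2.82 (2.38 to 3.30) in G1, 2.82 (1.95 to 3.81) in S and 2.83 (2.02 to 3.73) in G2M. Each was below its ratio of 3.17 over all cells. The intervals are wide in S, with 13 and 64 UMIs, and in G2M, with 15 and 79. Its level in the tamoxifen library was 17.1 CPM in G1, 4.32 in S and 4.22 in G2M. Oasl2 had 1.95, 2.08 and 2.33, Rtp4 2.06, 1.87 and 2.02, and Xaf1 1.05, 1.27 and 1.54 in G1, S and G2M. Other members past 1.5-fold over all cells were below it in some phases. In G1, S and G2M, Isg20 had 0.77, 0.38 and 0.34, Ifi27l2a 0.48, 0.22 and 0.84, and Trim30a 0.15, 0.54 and 0.78. G1 cells made up 41.6% of the oil library and 56.3% of the tamoxifen library.

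Cells were clustered without the members, other listed interferon genes, and genes that differed 1.5-fold between the libraries, and the 9 clusters were left unnamed. The median ratio of members was above 0 in 8 of them, from 0.14 in cluster 8 to 0.80 in cluster 5, where the oil library had 77 cells. It was -0.17 in cluster 6, where the oil library had 36 cells. Members with under 20 UMIs in a cluster, or with 0 in either library, were left out of its median. Medians over all genes were not computed by cluster. Clusters 5 and 6 drew 90.2% and 92.9% of their cells from the tamoxifen library, and without them 10 members were past 1.5-fold (2.29% of all genes) and 5 past 2-fold (0.459%). Cells of cluster 8 had medians of 1204 and 1198.5 UMIs, and 3 members had 20 UMIs there.

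In tamoxifen cells Ifit1 was highest in cluster 3, ahead of cluster 6 (13.6 CPM). In cluster 3, 1.53% (0.791 to 2.65) of oil cells and 9.65% (7.96 to 11.5) of tamoxifen cells had an Ifit1 UMI, and Ifit1 was at 4.86 and 26.7 CPM, Rtp4 at 10.9 and 43.3 CPM and Oasl2 at 5.47 and 38.0 CPM. Rtp4 was at 46.2 CPM in tamoxifen cells of cluster 5 and Oasl2 at 37.4 CPM in those of cluster 0, each with an interval that overlapped that of cluster 3. In cluster 2, Rtp4 was at 3.59 and 8.05 CPM and Oasl2 at 1.90 and 6.95 CPM. Other members followed other clusters: Ifi27l2a was highest in clusters 0 (51.4 and 85.2 CPM) and 7 (45.9 and 77.8), and Ifi47 in cluster 4, where it was lower in the tamoxifen library (157 and 119 CPM, log2 ratio -0.40, -0.57 to -0.22). Ly6e, too, was highest in cluster 4, at 1425 and 1316 CPM. Ifi47 was also lower in cluster 6 (log2 ratio -1.30, -2.30 to -0.12), on 9 and 74 UMIs.

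**Figure D5:**
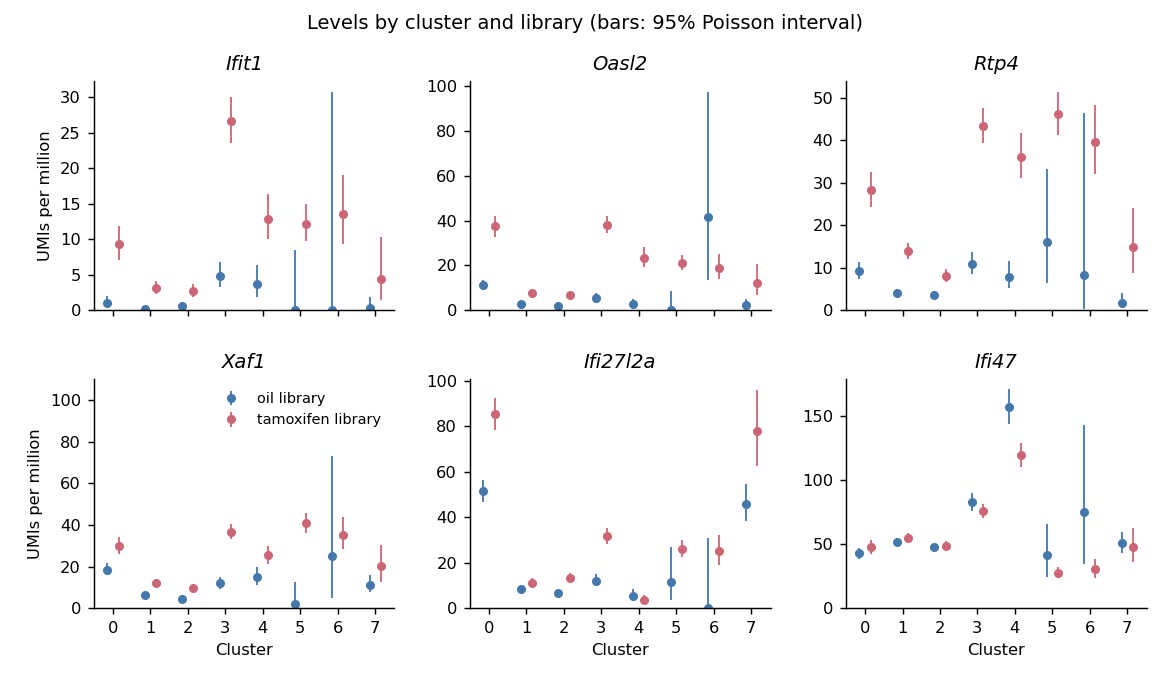
Level (CPM, axis from 0) of 6 members in clusters 0 to 7 of the oil and tamoxifen libraries, with 95% Poisson intervals. Cluster 8, with few UMIs, is left out, and the oil intervals in clusters 5 and 6 are wide because they hold 77 and 36 oil cells. In tamoxifen cells Ifit1 is highest in cluster 3 and Rtp4 is high in clusters 3 to 6 (43.3, 36.2, 46.2 and 39.5 CPM). Ifi27l2a is high in clusters 0 and 7, and Ifi47 in cluster 4.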

How the data were processed

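The authors aligned reads to mm10 and made gene by barcode matrices with Cell Ranger 3.0.2, whose deposited values are UMI counts, with no normalization. Seurat is named in the submitters' processing notes. Barcodes were kept with 500 or more genes and no more than 10% of UMIs from mitochondrial genes. Scrublet, run through scanpy 1.11.5, marked 0% of cells and so did not work as a doublet caller, and none were removed. UMIs were summed per library and gene and divided by the library total. Levels have exact Poisson intervals, shares Clopper-Pearson intervals and ratios exact conditional binomial intervals, all at 95% and covering counting error only. Seurat 5.3.0 scored phases on cells thinned to 3000 UMIs and clustered all kept cells without thinning (20 components, resolution 0.5). Positions are from GENCODE M21 and promoters from RefSeq, both GRCm38. The ratio, interval and thinning steps were tested on simulated data. The members and gene lists were chosen with earlier results of these data known. Genes named were all members, grouped by role, with full values for those past 2-fold, plus Usp18, Isg15, Irf7, Stat2, Irf9, Ifnar1 and Ifnar2, and 1 further gene of that rule is not reported here. Alternatives changed the cell filter, doublets, scaling, count minimum, phase, thinning, clustering and motif. Genes named outside this rule, such as Kit, Hbb-bs, Cpa3, Dhx58 and Eif2ak2, were chosen after their values were seen.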

Additional observations from a re-analysis of the deposited data

Results flagged for a closer look

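The barcodes that the cell filter left out, 936 in the oil library and 839 in the tamoxifen library, enter none of the levels or ratios of the kept cells. In them 25 of the 28 members were higher in the tamoxifen library, where 33.3% of all genes were, and the interval lay above 0 for 9 of them, where it did for 5.23% of all genes. Oas1a (-0.36), Ifi47 (-0.069) and Sp110 (-0.058) were lower, with intervals that included 0. Among the members past 2-fold in the kept cells, Ifit1, Oasl2 and Rtp4 had log2 ratios of 3.02 (1.88 to 4.39), with 7 and 59 UMIs, 2.09 (1.46 to 2.78), with 25 and 111, and 2.24 (1.65 to 2.88), with 28 and 138.

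For 2 members the direction differed between clusters, with intervals on both sides of 0. The difference between clusters was not tested. Igtp had log2 ratios of 0.55 in cluster 2 and 0.60 in cluster 3 but -0.73 in cluster 4, where it had 43 and 41 UMIs. Ly6e had 0.087 in cluster 0, 0.084 in cluster 2 and 0.22 in cluster 7 but -0.11 in cluster 4.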

How the results depend on the processing

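No paired analysis was possible because there was 1 library for each of the groups. Of 364 ratios of single members under the alternatives, 276 stayed within the counting interval of the reported value, 83 moved out of it and 5 whose interval had excluded 0 changed sign, and the cause was not tested. Those 5 included Oasl1 in S phase (-0.043, -0.33 to 0.24) and Gbp3 in G1 (-0.23, -0.59 to 0.12). Sp110 (-0.037, -0.29 to 0.21) and Tor3a (-0.22, -0.69 to 0.24) in G2M were among them too. All of these phase intervals included 0. The other was Igtp under a stricter cell filter of 1000 or more genes and mitochondrial UMIs of 5% or less (-0.00058), for which no interval was computed. Ifit2, Oas1a, Ifi47, Ifi35 and Ifi204, whose intervals included 0, changed sign in 27 of their values, with Ifit2 between -0.12 and 0.44 and Ifi204 between -0.29 and 0.49. The median of the members was 0.65 under that filter, which left 20 members to read, and 0.21 in S phase. Members past 1.5-fold numbered 4 in S and 6 in G2M, and those past 2-fold 3 in S, 3 in G2M and 9 with no count minimum. The members added without a minimum were Phf11d (13 and 28 UMIs), Iigp1 (3 and 6), Ifi203 (2 and 5) and Phf11b (2 and 4). Except for Phf11d, their intervals included 0. The share of all genes past 2-fold without a minimum was not computed. The phase counts and the fit without clusters 5 and 6 were added after seeing the data.

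Over all genes, those at least 1.5-fold higher numbered 138, 78 and 115 in G1, S and G2M and 571, 105 and 1448 with a minimum of 20, 500 and no UMIs. Those 2-fold higher numbered 29, 8 and 18 by phase, 198, 22 and 840 by minimum and 24 under the stricter filter. Those 1.5-fold lower numbered 369, 73 and 1055 by minimum, 295 under the stricter filter, 250 in G1, 88 with TMM, 86 without mitochondrial and ribosomal protein genes and 231 with equal weight per cell. Those 2-fold lower numbered 98, 7 and 435 by minimum, 24 under the stricter filter, 45 in G1 and 26 with equal weight.

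The mean number of members per cell was 1.80 and 2.20 (oil and tamoxifen) at 2000 UMIs, 3.21 and 3.96 at 5000 and 4.63 and 5.53 without thinning. Clusters whose members' median was above 0 made up 88.9%, 93.3% at resolution 1.0, and 100% at resolution 0.3 and with 30 components. Members at 0 UMIs are limited by depth.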
